A study of Mus musculus with 9 samples.

Results

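Conventional dendritic cells (cDCs) of the spleen fall into cDC1s and cDC2s, and cDC2s are recognised by the signal regulatory protein SIRPα together with a set of C-type lectins. C-type lectins are membrane proteins that bind sugars on microbes and on the body's own glycoproteins: some signal through Syk or through inhibitory motifs, and some deliver what they bind to compartments where antigen is processed. SIRPα is an inhibitory receptor for CD47 and recruits phosphatases such as SHP-2. In the mouse spleen, Notch signaling supports the ESAM-high cDC2s, and several of the lectins are also carried by monocytes and macrophages.

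The 10 genes described here are those of the gene expression table with the symbols Sirpa, Esam, Cd209a, Clec4a4, Clec4a2, Clec10a, Mgl2, Clec7a, Clec12a and Ly75, out of 54532 genes in the table. The rule picks them by name. All 10 passed a filter of at least 1 FPKM (fragments scaled for gene length and library size) in at least 3 of 9 samples, as did 12746 genes in all, and 8 of the 10 reached 1 FPKM in every sample. The exceptions were Mgl2 and Cd209a, which fell under 1 FPKM in at least 1 T-DC sample.

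Bulk RNA sequencing was performed on 3 groups of 3 samples of cells sorted from the spleens of mice of 6 to 8 weeks. N-mDCs were mature cDCs of healthy mice. T-mDCs were mature cDCs of mice with T-cell acute lymphoblastic leukemia (T-ALL), and T-DCs were CD11c+ cells with low MHCII of such mice, gated as negative for GFP and for lymphocyte markers that include CD3 and NK1.1. Per the study's methods, the leukemia was made by retroviral expression of the intracellular domain of Notch1 with GFP in c-kit+ bone marrow cells of C57BL/6J mice, was passed to C57BL/6J or C57B6.SJL recipients without irradiation, and was sampled on day 15. Leukemia cells carrying active Notch1 were therefore present in the hosts of T-DCs and T-mDCs and absent from those of N-mDCs, and the T-DC gate has no counterpart from healthy mice in these data. T-DCs differed from T-mDCs in the gate and from N-mDCs in both gate and host. The sources used here do not say whether the 3 samples of a group came from separate mice, so the p-values measure the spread between samples, which may be technical.

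Libraries held 15360815 to 18440913 reads on genes, a 1.2-fold range. T-DC sample 1 stood apart from T-DC samples 2 and 3 (Pearson r of log2(FPKM + 1) across genes 0.836 and 0.808, against 0.961 between samples 2 and 3). It was closer to every mature sample, with r of 0.864 to 0.880 to N-mDCs and 0.845 to 0.921 to T-mDCs. T-mDC samples 2 and 3 were closer to each other (r = 0.991) than any other pair, but differed by more than counting noise and were kept apart. The summed FPKM of 8 erythroid markers was 603, 57937 and 41950 in T-DC samples 1, 2 and 3, against 99.4 to 5359 in N-mDCs and 14.5 to 179 in T-mDCs. The summed FPKM of 11 neutrophil markers was 13.9, 4369 and 1538 in the T-DC samples, against 67.2 to 718 in N-mDCs and 5.29 to 16.0 in T-mDCs. Monocyte markers (10 genes) reached summed levels of 1869 to 5043 FPKM in T-DCs, 2359 to 3944 FPKM in N-mDCs and 680 to 1704 FPKM in T-mDCs. The sums hide single markers that went in opposite directions. Of the 10, 3 were called lower and 1 higher in T-DCs than in N-mDCs, beside 10.3% and 6.10% of all tested genes. Against T-mDCs, 1 was called lower and 3 higher, beside 8.79% and 5.44% of all tested genes. Of the markers that define cDCs in general, 5 of 6 were lower in T-DCs than in either mature group, Itgax (CD11c) being the one not called, and T-DCs had lower levels of 6 of 11 cDC1 markers than N-mDCs and of all 11 than T-mDCs. Markers of mature DCs were also low in T-DCs, with 8 of 9 tested markers lower in both comparisons. Beside these counts of DC markers, 10.3% of all tested genes were called lower than in N-mDCs and 8.79% lower than in T-mDCs. Ccl17 was too low to be tested. It was at 0 in every T-DC sample, but only at 0.214 to 1.99 FPKM in N-mDCs and 0.529 to 1.01 FPKM in T-mDCs. Summed mature DC markers were 1089 to 2357 FPKM in N-mDCs and 1205 to 1864 in T-mDCs, and summed cDC1 markers 532 to 732 and 868 to 1328. The mature groups also held RNA of genes used as markers of other cells, and which cells it came from was not tested. Summed red pulp macrophage markers were 2397 to 4641 FPKM in N-mDCs and 524 to 1730 in T-mDCs. Summed pDC markers were 227 to 539 and 59.8 to 116 FPKM. The purity of the sorted cells was not tested. In bulk samples, fewer cells of a type and less RNA per cell cannot be told apart.

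The genes lie in a few small groups in the mouse genome, given here in the mm10 build that the files use. Clec4a4 (chr6:122990367-123024105, plus strand) and Clec4a2 (chr6:123106428-123143999, plus strand) are 82.3 kb apart in the cluster of Dectin-2 and DCIR genes. Clec12a (chr6:129342691-129365303, plus strand) and Clec7a (chr6:129461591-129472779, minus strand) are 96.3 kb apart in the Dectin-1 cluster. Mgl2 (chr11:70130329-70137550, plus strand) and Clec10a (chr11:70156197-70170834, plus strand) are neighbours 18.6 kb apart. The others are Cd209a (chr8:3743397-3748984, minus strand), Esam (chr9:37528078-37538319, plus strand), Sirpa (chr2:129592835-129632228, plus strand) and Ly75 (chr2:60292103-60383303, minus strand). The table gives Clec7a the biotype polymorphic pseudogene and the other 9 the biotype protein coding. No gene overlapping a member reached 1 FPKM. How reads shared by near-identical copies were assigned is not given in the sources used here, so values within the Clec4a, Cd209 and Clec10a/Mgl2 families carry that uncertainty.

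Cd209a and Clec7a were called lower than in N-mDCs in both groups from leukemic spleens, and the sequence before each start is shown for that reason. These are the 250 bases upstream of the RefSeq starts in GRCm38.p6, written along the gene's minus strand, at chr6:129472780-129473029 for Clec7a and chr8:3748985-3749234 for Cd209a.
Clec7a: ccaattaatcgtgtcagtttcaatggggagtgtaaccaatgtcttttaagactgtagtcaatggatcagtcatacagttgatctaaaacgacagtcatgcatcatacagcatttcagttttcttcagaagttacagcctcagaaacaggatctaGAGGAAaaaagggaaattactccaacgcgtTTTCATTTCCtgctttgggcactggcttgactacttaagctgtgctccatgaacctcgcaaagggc
Cd209a: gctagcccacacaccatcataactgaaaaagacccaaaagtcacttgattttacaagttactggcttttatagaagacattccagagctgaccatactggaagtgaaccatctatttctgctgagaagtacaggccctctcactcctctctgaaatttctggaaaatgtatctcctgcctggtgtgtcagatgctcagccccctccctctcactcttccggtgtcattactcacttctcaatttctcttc
Capitals mark matches to GAGGAA, a core bound by PU.1, and to an ETS-IRF composite (GGAA, any 2 bases, then GAAA), searched on both strands without overlap between them. The Clec7a window held both, the PU.1 core at 96 to 91 bases before the start and the composite, on the opposite strand, at 66 to 57 bases. Of 32536 mouse windows of this length, 23.4% held the PU.1 core and 2.31% the composite. The Cd209a window held neither, and TGGGAA, the core bound by the Notch partner RBPJ and present in 21.6% of windows, was in neither window. From a second listed start of Clec7a, the same matches lie at 90 to 85 and 60 to 51 bases. Windows were found for 6 of the 10 genes. Of the other 4 (Ly75, Clec4a2, Clec12a and Mgl2), Clec12a and Mgl2 held the PU.1 core and none held the composite. The Clec4a2 and Clec12a windows lie inside the gene spans given above, and the windows of all 4 overlap annotated exons.

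The genes separated into those that were low in T-DCs, those that were low in both groups from leukemic spleens, and 3 that were not called in any comparison. In an F-test over the 3 groups (limma on log2(FPKM + 1), Benjamini-Hochberg adjustment over 12746 genes), 7 of 10 genes passed an adjusted p of 0.05, where 18.0% of all tested genes did. Sirpa, Clec4a2 and Clec12a did not pass.

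**Figure D1:**
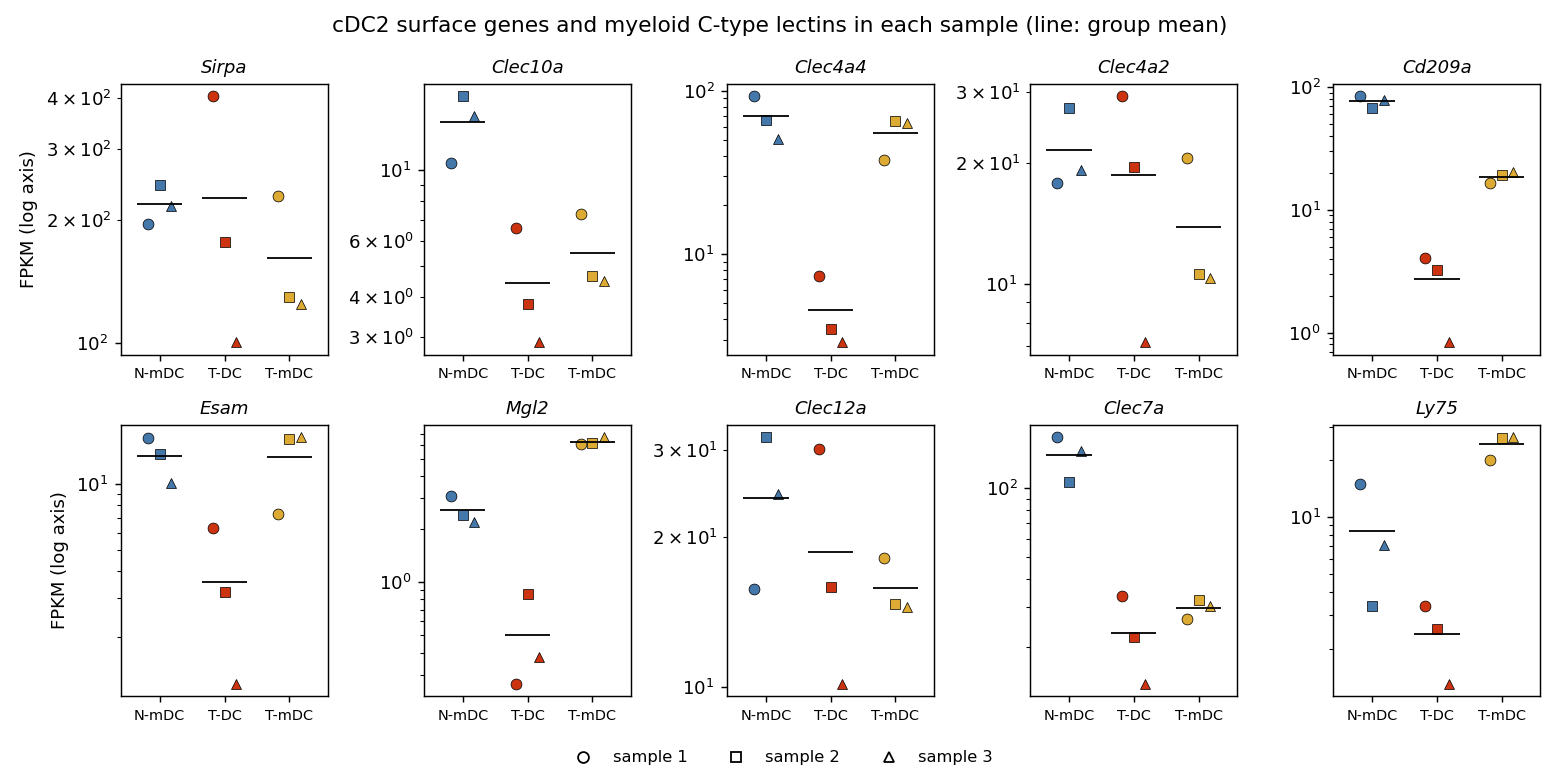
FPKM (log axis) of each of the 10 genes in every N-mDC, T-DC and T-mDC sample, with the symbol giving the sample number and the line the mean of 3. For Cd209a, Clec4a4, Esam, Mgl2 and Ly75 the 3 T-DC samples lay under all 6 others, and for Sirpa, Clec4a2 and Clec12a the groups overlapped.

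Compared with N-mDCs, T-DCs expressed lower levels of Cd209a, Clec4a4, Clec7a, Esam, Clec10a and Mgl2, 6 of the 10 genes, while 10.3% of all tested genes were called lower (16.4% in either direction). All 10 differences were below 0 and none was called higher, against 6.10% of all tested genes. The samples of T-DCs and N-mDCs did not overlap for 7 of the 10, the 6 named and Ly75, where 32.4% of all tested genes did not overlap. The median difference in log2(FPKM + 1) was -1.42 over the 10 genes and 0.05 over all tested genes. Leaving out T-DC sample 1 gave 7 genes called lower, Ly75 being added. The share of all tested genes called in that fit is not given here.

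Compared with T-mDCs, T-DCs expressed lower levels of Clec4a4, Ly75, Cd209a, Mgl2 and Esam. These were 5 of the 10 genes, beside 8.79% of all tested genes called lower (14.2% in either direction). None was called higher in limma, also at an unadjusted p under 0.05, beside 5.44% of all tested genes. The same 5 genes had T-DC and T-mDC samples that did not overlap, where 34.9% of all tested genes did not overlap. The median difference was -1.08 over the 10 genes and 0.07 over all tested genes. An erythroid covariate was taken as the mean log2(FPKM + 1) of the 8 erythroid markers in each sample. With it, limma called 0 of the 10 genes and 0 of all genes in this comparison (adjusted p 0.118 for Mgl2 and 0.156 for Clec4a4). In that fit, 4 of the 10 had an unadjusted p under 0.05. The share of all tested genes at that p is not given, so this count is not a result about the 10 genes. All T-DC samples held more erythroid RNA than all T-mDC samples, so that this covariate and the group cannot be told apart. T-DC sample 1 had the least erythroid and neutrophil RNA of its group, but more erythroid RNA than any T-mDC sample. It also had the highest summed monocyte (5043 FPKM) and red pulp macrophage (3694 FPKM) markers of its group. In that sample Clec4a4, Ly75, Cd209a, Mgl2 and Esam were under every N-mDC and T-mDC sample. For Ly75 this was by 3.35 against 3.38 FPKM in N-mDC sample 2. What part these cell types had in the differences was not tested.

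Between T-mDCs and N-mDCs, both mature cells, Clec7a and Cd209a were lower in T-mDCs and Mgl2 was higher. That was 2 of 10 genes called lower beside 1.52% of all tested genes, and 1 called higher beside 0.690% (2.21% in either direction). The samples did not overlap for 5 of the 10 genes, where 35.0% of all tested genes did not overlap. The median difference was -0.51 over the 10 genes and 0.03 over all tested genes. These calls rested on few samples: when T-mDC samples 2 and 3 were averaged into 1 sample, none of the 3 remained (limma, with 5 of the 10 genes at an unadjusted p under 0.05). The share of all tested genes at that unadjusted p is not given, so the 5 are not a result about the 10 genes.

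**Figure D2:**
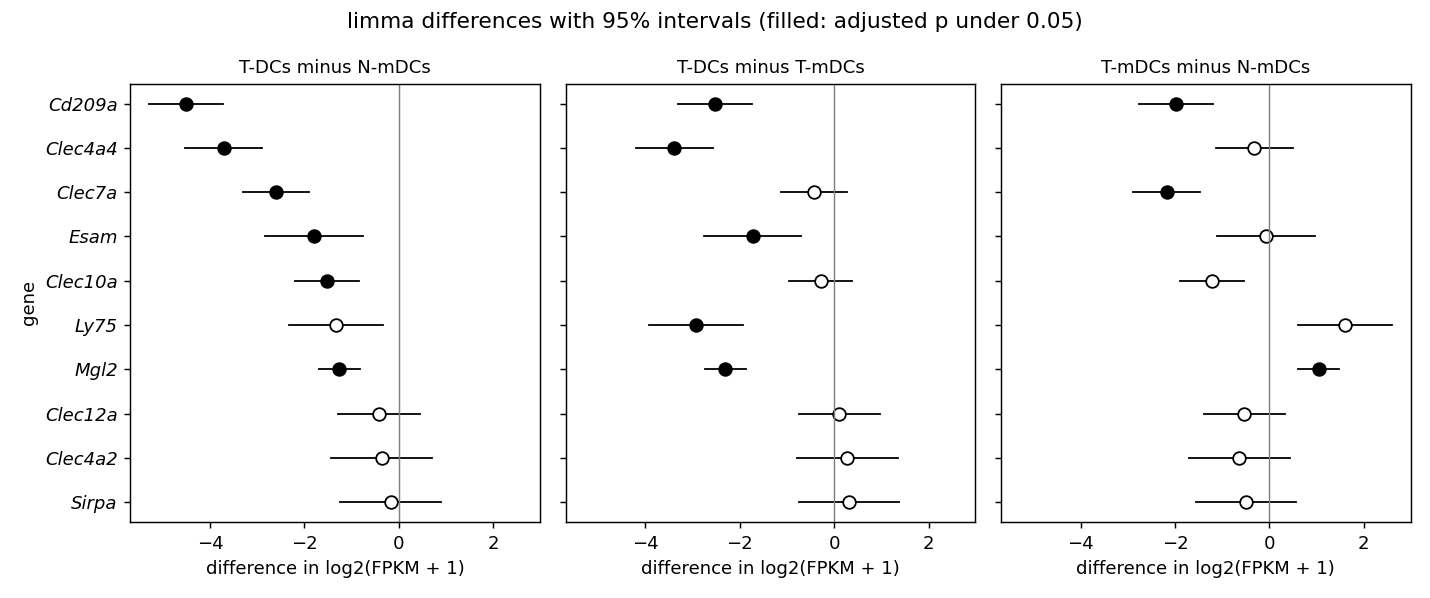
Differences in log2(FPKM + 1) for the 10 genes in the 3 comparisons (limma, 3 samples a group), with 95% intervals. Filled circles mark an adjusted p under 0.05, which 6, 5 and 3 genes passed from left to right, and Mgl2 alone was called higher, in T-mDCs against N-mDCs.

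Cd209a showed the largest difference of the 10. It encodes a mouse relative of human DC-SIGN, which binds mannose- and fucose-bearing glycans. Its level was 84.8, 67.1 and 77.9 FPKM in N-mDC samples 1, 2 and 3. It was 4.06, 3.26 and 0.832 FPKM in T-DCs and 16.4, 19.2 and 20.4 FPKM in T-mDCs. The 3 groups formed 3 separate levels with no overlap, N-mDCs highest and T-DCs lowest. The mean of T-DCs, 2.72 ± 1.68 FPKM (SD, n = 3), was 28.2-fold under the 76.6 ± 8.95 of N-mDCs, with a log2 difference of -4.50 ± 0.35 (SE, limma adjusted p = 0.000456), which was called in all 22 alternative analyses. Against T-mDCs (18.7 ± 2.03 FPKM), T-DCs were 6.87-fold lower, by -2.52 ± 0.35 (limma adjusted p = 0.00341). T-mDCs were 4.10-fold lower than N-mDCs, by -1.98 ± 0.35 (limma adjusted p = 0.0274), a call made in 11 of 22 alternatives and lost without any 1 of the N-mDC or T-mDC samples (adjusted p up to 0.14).

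Clec7a encodes Dectin-1, the β-glucan receptor that signals through Syk and CARD9. Its level was 168, 106 and 145 FPKM in N-mDCs. It was 33.5, 22.1 and 13.8 FPKM in T-DCs and 26.7, 32.0 and 30.3 FPKM in T-mDCs. Every sample from a leukemic spleen was under every N-mDC sample, and T-DCs and T-mDCs overlapped. The mean was 140 ± 31.2 FPKM in N-mDCs and 23.2 ± 9.90 in T-DCs, a log2 difference of -2.60 ± 0.31 (limma adjusted p = 0.00171). In T-mDCs it was 29.7 ± 2.74 FPKM, a difference of -2.18 ± 0.31 from N-mDCs (limma adjusted p = 0.0156), which was lost without N-mDC sample 3, T-mDC sample 2 or T-mDC sample 3 (highest adjusted p 0.0828). T-DCs and T-mDCs differed by -0.42, with a 95% interval from -1.13 to 0.28 (limma adjusted p = 0.392).

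Clec10a and Mgl2 encode the galactose-type lectins MGL1 and MGL2, which bind galactose or N-acetylgalactosamine. Clec10a stood at 10.6, 17.1 and 14.8 FPKM in N-mDCs. It stood at 6.59, 3.81 and 2.89 FPKM in T-DCs and 7.29, 4.66 and 4.50 FPKM in T-mDCs. Like Clec7a, it was lower in every sample from leukemic spleens than in every N-mDC sample. The difference of T-DCs from N-mDCs was -1.51 ± 0.30 (limma adjusted p = 0.0121) and was lost with the erythroid covariate (adjusted p = 0.0937). T-mDCs differed from N-mDCs by -1.23 ± 0.30 and missed the threshold (limma adjusted p = 0.0809), and T-DCs differed from T-mDCs by -0.29 with a 95% interval from -0.96 to 0.39.

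Mgl2, its neighbour, followed another order. It was at 3.08, 2.40 and 2.21 FPKM in N-mDCs, at 0.267, 0.863 and 0.377 FPKM in T-DCs (10, 28 and 12 reads) and at 6.10, 6.15 and 6.67 FPKM in T-mDCs. The groups did not overlap, with T-mDCs highest and T-DCs lowest. T-DCs were lower than N-mDCs by -1.26 ± 0.19 (limma adjusted p = 0.00442) and lower than T-mDCs by -2.30 ± 0.19 (limma adjusted p = 0.00102). T-mDCs were higher than N-mDCs by 1.04 ± 0.19 (limma adjusted p = 0.0329), which was called in 10 of 22 alternatives and lost without N-mDC sample 2 or 3 or any 1 of the T-mDC samples (adjusted p up to 0.161). Since 1 FPKM was added to every value, these differences understate the change of a gene this low.

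The ratio of Clec10a to Mgl2 within a sample does not depend on how the sample was scaled. It was 3.43, 7.12 and 6.68 in N-mDCs, 24.7, 4.41 and 7.64 in T-DCs, and 1.196, 0.757 and 0.675 in T-mDCs. Every T-mDC sample was under every other sample. On the log2 scale T-mDCs lay 2.69 below N-mDCs, a mean of -0.24 ± 0.44 (SD, n = 3) against 2.45 ± 0.58, and T-DCs lay 3.47 above T-mDCs (exact permutation p = 0.1 for each, two-sided, the smallest p that 3 against 3 samples allow, and 0.15 after adjustment over 6 such comparisons). T-DCs and N-mDCs overlapped (exact permutation p = 0.4).

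Clec4a4 and Clec4a2 are dendritic cell immunoreceptor (DCIR) genes. Clec4a2 encodes DCIR1, which carries an inhibitory motif, and Clec4a4 encodes DCIR2, the target of the 33D1 antibody that marks a cDC2 subset of the spleen. Clec4a4 was at 93.2, 66.0 and 50.5 FPKM in N-mDCs. It was at 7.34, 3.49 and 2.89 FPKM in T-DCs (102, 42 and 34 reads) and at 37.8, 65.7 and 63.4 FPKM in T-mDCs. All 3 T-DC samples were under all mature samples, and the mature groups overlapped. The mean of 4.57 ± 2.41 FPKM in T-DCs was 15.3-fold under the 69.9 ± 21.6 of N-mDCs, by -3.71 ± 0.36 (limma adjusted p = 0.000845), a call made in all 22 alternatives. It was 12.2-fold under the 55.7 ± 15.5 of T-mDCs, by -3.39 ± 0.36 (limma adjusted p = 0.00177). T-mDCs and N-mDCs differed by -0.32, with a 95% interval from -1.14 to 0.50.

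Clec4a2 gave no such separation. Its level was 17.8, 27.4 and 19.2 FPKM in N-mDCs. It was 29.3, 19.6 and 7.16 FPKM in T-DCs and 20.6, 10.6 and 10.3 FPKM in T-mDCs. All groups overlapped, and T-DC sample 1 had the highest and T-DC sample 3 the lowest of the 9 values. The 95% interval of the difference of T-DCs ran from -1.43 to 0.71 against N-mDCs and from -0.79 to 1.35 against T-mDCs. The ratio of Clec4a4 to Clec4a2 within a sample was 5.25, 2.41 and 2.63 in N-mDCs, 0.250, 0.179 and 0.403 in T-DCs, and 1.84, 6.20 and 6.14 in T-mDCs. On the log2 scale, the ratio in T-DCs was 3.62 under that in N-mDCs and 3.97 under that in T-mDCs, with no overlap (exact permutation p = 0.1 for each, two-sided, the smallest possible, and 0.15 adjusted).

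**Figure D3:**
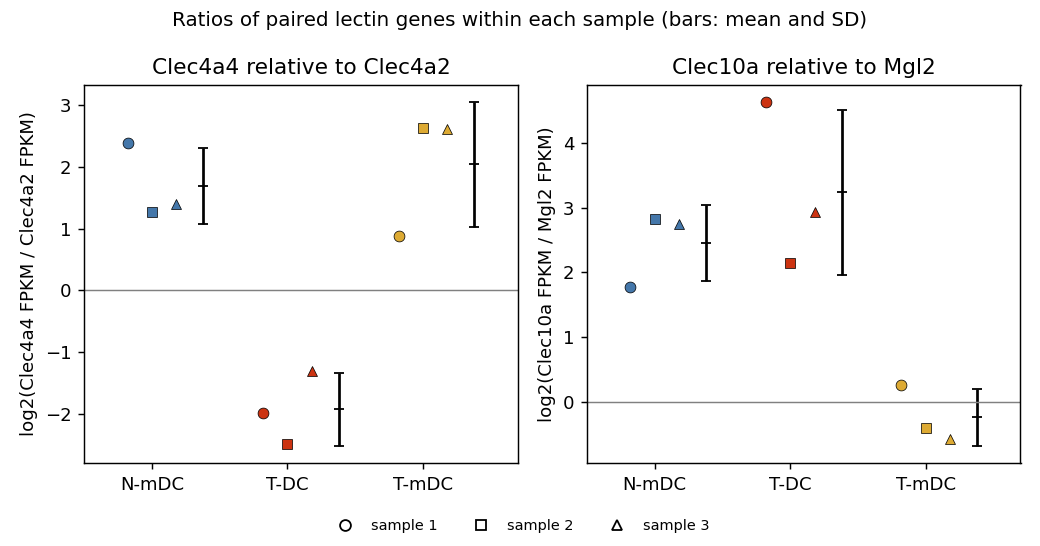
Log2 ratios of Clec4a4 to Clec4a2 and of Clec10a to Mgl2 in every sample, with the mean and SD of each group of 3 beside the points. Clec4a4 lay under Clec4a2 in T-DCs alone, and Mgl2 was closest to Clec10a in T-mDCs.

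Of the lectin genes around Clec4a4, no other was called lower in T-DCs in either comparison by limma (Clec4b2, with adjusted p of 0.0791 and 0.0525, came closest). The cluster of 9 C-type lectin genes spans 368 kb, and Clec4a1, Clec4a3, Clec4n and Clec4e are named here after their values were seen. Clec4a3, the lectin gene directly before Clec4a4, was at 45.5, 68.1 and 78.1 FPKM in N-mDCs. It was at 378, 268 and 131 FPKM in T-DCs and at 178, 57.7 and 58.1 FPKM in T-mDCs. It was higher in T-DCs than in N-mDCs by 1.91 ± 0.52 (limma adjusted p = 0.0389), the opposite direction to Clec4a4. Clec4a1 was at 281, 164 and 83.4 FPKM in T-DCs, against 74.8, 93.4 and 81.2 FPKM in N-mDCs, and its difference of 0.92 did not pass (limma adjusted p = 0.176). Clec4e encodes Mincle, a receptor for mycobacterial glycolipids, and was higher in T-DCs than in T-mDCs by 3.36 ± 0.78 (limma adjusted p = 0.0246). Clec4n, the gene of Dectin-2, overlapped between groups and its difference of 0.16 between T-DCs and N-mDCs did not pass.

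**Figure D4:**
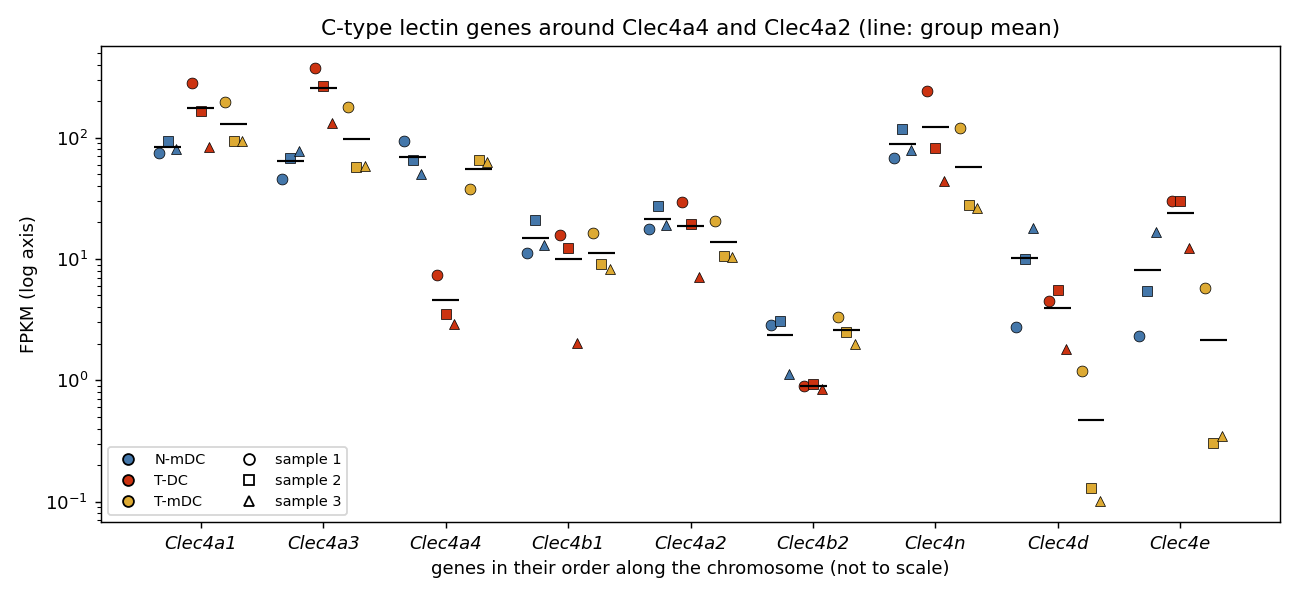
FPKM (log axis) in every sample for the 9 C-type lectin genes of the chromosome 6 cluster, in their order along the chromosome. Clec4a4 was the gene whose T-DC samples fell to 2.89 to 7.34 FPKM while its mature samples stayed at 37.8 FPKM or above, and Clec4a3 beside it was at 131 to 378 FPKM in T-DCs.

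Esam encodes an adhesion molecule of endothelial cells that also marks Notch-dependent splenic cDC2s. It was at 16.3, 13.8 and 10.2 FPKM in N-mDCs. It was at 6.31, 3.20 and 1.22 FPKM in T-DCs and 7.26, 16.1 and 16.4 FPKM in T-mDCs. The T-DC samples were under all others, but T-DC sample 1 came close to T-mDC sample 1. The differences of T-DCs were -1.80 ± 0.45 from N-mDCs (limma adjusted p = 0.0307) and -1.73 ± 0.45 from T-mDCs (limma adjusted p = 0.038). These were the least stable of the T-DC calls, made in 13 and 10 of 22 alternatives. Both were lost without any 1 N-mDC sample or without T-DC sample 2 or 3, and that against T-mDCs also without T-mDC sample 2 or 3 (adjusted p up to 0.247 and 0.779 over all alternatives). T-mDCs and N-mDCs differed by -0.07, with a 95% interval from -1.10 to 0.96.

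Ly75 encodes DEC-205, an endocytic receptor that is most abundant on cDC1s and rises on cDCs as they mature. Its level was 14.9, 3.38 and 7.05 FPKM in N-mDCs. It was 3.35, 2.53 and 1.31 FPKM in T-DCs and 19.9, 26.2 and 26.4 FPKM in T-mDCs. N-mDC sample 2 lay only just above T-DC sample 1. T-DCs were lower than T-mDCs by -2.93 ± 0.44 (limma adjusted p = 0.00447), a 10.1-fold difference of the means. Against N-mDCs the difference of -1.33 ± 0.44 missed the threshold (limma adjusted p = 0.0694) and was called without N-mDC sample 2 or without T-DC sample 1. T-mDCs lay 1.60 ± 0.44 above N-mDCs without overlap and were not called (limma adjusted p = 0.112), although they were without N-mDC sample 1.

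Sirpa, the general cDC2 marker of the set, was the most abundant of the 10 and did not differ detectably between groups. It was at 195, 244 and 218 FPKM in N-mDCs. It was at 404, 177 and 100 FPKM in T-DCs and 230, 130 and 124 FPKM in T-mDCs. T-DCs spanned both the highest and the lowest value of the 9 samples. The difference of T-DCs was -0.18 from N-mDCs, with a 95% interval from -1.24 to 0.89, and 0.32 from T-mDCs, with an interval from -0.75 to 1.38. These intervals include a fall of over 2-fold from N-mDCs and a rise of over 2-fold from T-mDCs. Within T-DCs, Sirpa had the sample order of the summed red pulp macrophage markers (3694, 1252 and 746 FPKM in samples 1, 2 and 3). Summed monocyte markers (5043, 2875 and 1869 FPKM) had it too, as did 33.7% of all tested genes. The part of monocyte and macrophage RNA in the Sirpa level was not tested, so it is not a measure of cDC2s alone.

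Clec12a encodes MICL, an inhibitory receptor for uric acid crystals that is broadly expressed in myeloid cells. It was at 15.7, 31.8 and 24.4 FPKM in N-mDCs, at 30.0, 15.9 and 10.1 FPKM in T-DCs and at 18.1, 14.7 and 14.4 FPKM in T-mDCs. The groups overlapped in each comparison. The 95% interval of the difference of T-DCs was -1.28 to 0.44 against N-mDCs and -0.75 to 0.97 against T-mDCs. Clec12a and Clec7a, 96.3 kb apart, thus had different values in the same samples: Clec7a separated N-mDCs from all others and Clec12a did not.

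In order of mean FPKM, N-mDCs ran from Sirpa (219) and Clec7a (140) through Cd209a (76.6) and Clec4a4 (69.9) to Mgl2 (2.57). The order of T-DCs began with Sirpa (227), and Clec7a (23.2), Clec12a (18.7) and Clec4a2 (18.7) came next, overlapping each other. Cd209a and Clec4a4 had dropped to 2.72 and 4.57 FPKM, beside Clec10a (4.43), Esam (3.57) and Ly75 (2.40), whose samples overlapped as well. In T-mDCs Sirpa (161) was followed by Clec4a4 (55.7), Clec7a (29.7) and Ly75 (24.2).

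T-DC sample 1 had the highest and T-DC sample 3 the lowest T-DC value for 9 of the 10 genes, Mgl2 being the exception, where 33.7% of all tested genes had that order. The 10 genes summed to 525, 252 and 141 FPKM in T-DC samples 1, 2 and 3, beside 569 to 619 FPKM in N-mDCs and 317 to 390 FPKM in T-mDCs. Itgax followed the same order, at 152, 90.4 and 43.0 FPKM in the T-DC samples. Each gene was therefore also taken relative to Itgax in the same sample, a ratio chosen after the values were seen. Relative to Itgax, Clec4a4, Cd209a, Esam and Mgl2 stayed under all N-mDC and all T-mDC samples in T-DCs. With Clec7a against N-mDCs and Ly75 against T-mDCs, that made 5 of 10 genes lower without overlap in each comparison, where 5.77% and 6.45% of all tested genes were. Clec10a, which did not overlap between T-DCs and N-mDCs in FPKM, overlapped relative to Itgax. Sirpa relative to Itgax was 2.67, 1.96 and 2.34 in T-DCs, above the 0.849, 1.54 and 1.36 of N-mDCs and the 1.45, 0.783 and 0.744 of T-mDCs. It was the only one of the 10 higher without overlap than in N-mDCs, where 39.3% of all tested genes were. Against T-mDCs, 4 of 10 (Sirpa, Clec4a2, Clec12a and Clec7a) were higher without overlap, where 44.1% of all tested genes were. The part of the erythroid, neutrophil and monocyte RNA in these differences was not tested.

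Across the 9 samples, log2(FPKM + 1) of the 10 genes fell into sets that followed each other, given as a description since all points share the 3 groups. The highest Pearson r (n = 9 samples) was 0.945, between Sirpa and Clec4a2, and Clec12a followed both (0.880 and 0.891). Clec4a4 went with Esam (0.938) and Cd209a (0.916), and Mgl2 with Ly75 (0.927). Cd209a went with Clec7a (0.902), which in turn went with Clec10a (0.901). Sirpa and Mgl2 were the least alike, with r = -0.261.

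Among the 12746 tested genes, the genes most alike to each of the 10 were named by the highest Pearson r over the 9 samples. Cd209a was closest to Klrd1 (0.997), Gm15156 and Rrad. Clec4a4 was closest to Procr (0.997), Ddr1 and Marveld1. Sirpa was closest to Lgmn (0.987), Ugp2 and Lmbrd1, and Clec12a to Hexa (0.964), Tspan17 and Tmem59. Clec4a2 was closest to Pdgfb (0.974), Slc7a7 and Itga9. Esam was closest to Dlgap4 (0.993), Mthfs and Lsp1, and Ly75 to Dock6 (0.993), Nck2 and Ppfibp1. Mgl2 was closest to Mmp23 (0.984), Gm37759 and Pcbp4, Clec7a to Pxdc1 (0.989), Prpf40b and Per1, and Clec10a to Sgcb (0.979), Cxxc5 and I730030J21Rik. With 9 samples in 3 groups, many genes reach such values.

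Other C-type lectins were read from a list of 40 genes, of which 28 could be tested. In T-DCs, 11 of 28 were lower and 1, Clec4a3, was higher than in N-mDCs. These were shares of 39.3% and 3.6%, beside 10.3% and 6.10% of all tested genes. The largest of these differences were Klrd1 (-3.70), which encodes CD94, Fcer2a (-2.69), which encodes the low-affinity IgE receptor, Cd209d (-2.65) and Clec9a (-2.43), a cDC1 receptor for dead cells. Compared with T-mDCs, 6 of 28 were lower, led by Clec9a (-3.17), Mrc2 (-2.56) and Klrd1 (-2.21), and Clec4e was higher. Of all tested genes, 8.79% were called lower and 5.44% higher in that comparison. In T-mDCs, 5 of 28 were lower than in N-mDCs (Cd209d, Cd69, Cd209b, Cd209e and Clec4g), beside 1.52% of all tested genes. None of the 28 was higher by limma, beside 0.690% of all tested genes. Mrc2 alone had an unadjusted p under 0.05 in that direction (limma adjusted p = 0.119). Relatives of Cd209a were thus among the genes lower in both groups from leukemic spleens. Cd209d was at 10.2, 39.1 and 30.9 FPKM in N-mDCs. It was at 5.65, 3.09 and 1.15 FPKM in T-DCs and at 1.96, 1.01 and 0.828 FPKM in T-mDCs, so that T-mDCs were lowest for Cd209d and T-DCs for Cd209a. The summed FPKM of 12 red pulp macrophage markers was highest in N-mDCs (2397 to 4641), with 746 to 3694 FPKM for T-DCs and 524 to 1730 FPKM for T-mDCs. That of 6 markers of NK cells, which also express Klrd1, lay between 50.6 and 151 in N-mDCs, between 1.40 and 28.7 in T-DCs and between 1.48 and 2.84 in T-mDCs. The 6 listed B cell markers had sums from 209 to 283 FPKM across the N-mDC samples. Their sums were lower for every T-DC sample (31.3 to 89.1 FPKM) and every T-mDC sample (49.7 to 181 FPKM). The part of these cell types in the lectin differences, that of Fcer2a included, was not tested.

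Of 25 genes that carry the signals of lectins and SIRPα, 3 were lower and 3 higher in T-DCs than in N-mDCs, shares of 12% each beside 10.3% and 6.10% of all tested genes. The median difference of the 25 was -0.09. Malt1, the protease of the CARD9 complex, was lower by -2.19 ± 0.39 (limma adjusted p = 0.00841), and the transcription factor Nfatc2 by -1.76 ± 0.33. The kinase Src was lower by -1.27 ± 0.32. Ptpn11, which encodes SHP-2, and Cd47, the ligand of SIRPα, were among the genes higher in T-DCs, by 0.85 and 0.75. Cd47 was at 56.2, 56.5 and 63.2 FPKM in N-mDCs. It was at 77.7, 127 and 98.7 FPKM in T-DCs and at 61.8, 62.0 and 62.3 FPKM in T-mDCs. T-DCs thus had Cd47 above both mature groups in every sample, although the difference from T-mDCs, 0.67 ± 0.20, did not pass (limma adjusted p = 0.0576). Within T-DCs, Cd47 had the same sample order as the summed erythroid markers (603, 57937 and 41950 FPKM in samples 1, 2 and 3). The part of erythroid RNA in the Cd47 level was not tested. Against T-mDCs, 3 of the 25 (Malt1, Nfatc2 and Skap2) were lower and 1 was higher. These were shares of 12% and 4%, near the 8.79% and 5.44% of all tested genes. None of the 25 was called by limma between T-mDCs and N-mDCs, beside 2.21% of all tested genes, and 3 had an unadjusted p under 0.05.

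Of 22 transcription factors and other genes tied to cDC2s, 11 were called lower in T-DCs when compared with N-mDCs. That was beside 10.3% of all tested genes. None of the 22 was called higher by limma, beside 6.10% of all tested genes. Cx3cr1 alone had an unadjusted p under 0.05 in that direction (limma adjusted p = 0.0603). The largest differences were in the decoy receptor gene Il1r2 (-4.83), the Notch target Dtx1 (-3.99), the oxysterol receptor gene Gpr183 (-3.44) and Irf4 (-3.20), a factor that cDC2s need. Irf4 was at 55.3, 39.6 and 46.3 FPKM in N-mDCs. It was at 2.31, 8.49 and 3.45 FPKM in T-DCs and at 12.8, 16.7 and 16.2 FPKM in T-mDCs. Its groups did not overlap and stood in the same order as those of Cd209a. Compared with T-mDCs, 9 were lower in T-DCs, led by Dtx1 (-3.46) and Relb (-3.29), and 2, Cx3cr1 (2.57) and Itgam (1.39), were higher. The shares of all tested genes were 8.79% lower and 5.44% higher. In T-mDCs only Il1r2 was called lower than in N-mDCs, beside 1.52% of all tested genes.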

How the data were processed

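RNA was sequenced from sorted CD11c+ splenic cells, 3 samples a group. The deposited table gives FPKM for each gene, made by the authors on the mm10 build per the labels; aligner, counter and annotation version are not given in the sources used here. Gene start and end matched GENCODE M21 for 98.3% of shared genes and for all 10 members. Groups, replicate numbers and columns were taken from the labels.

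Tested genes had 1 FPKM or more in 3 or more of the 9 samples. One limma fit (version 3.58.1, R 4.3.3) of log2(FPKM + 1) covered the 3 groups with a variance trend, and p-values were adjusted by Benjamini-Hochberg over all tested genes (threshold 0.05). Fold changes are on that scale unless given as ratios of mean FPKM. Ratios within samples were compared by exact permutation (scipy 1.17.1). Read numbers were recovered from FPKM and gene length. The scripts were tested on simulated data. The members and lists were chosen with earlier results of these data known. All members are described. Of the other lists, up to 4 called genes with the largest difference from either group are named, and the other names were chosen after their values were seen. Values of 1 listed gene are not reported here. Upstream sequences are from RefSeq (GRCm38.p6).

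The sources used here do not say whether samples of the same number share an animal or day, and the fit had no block. Alternatives were another pseudocount, filter, scaling, weighting or trend, a replicate block, an erythroid covariate, recovered reads with voom, fewer groups and leaving out each sample.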

Additional observations from a re-analysis of the deposited data

How the results depend on the processing

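Over the 10 genes, 3 comparisons and 22 alternatives, 592 results kept their direction and their side of the threshold or had no call to lose, 54 lost a call, 14 gained one, and no called difference reversed. Between T-DCs and T-mDCs the count of 5 genes became 9 with array weights, whose estimate did not converge, and 0 with the erythroid covariate. Between T-mDCs and N-mDCs the count of 3 became 1 with a pseudocount of 0.1, 1 without a filter, 0 with TPM scaling, 7 with array weights, 1 with the replicate block and 0 with T-mDC samples 2 and 3 averaged. With TPM and with averaging, 5 of the 10 genes had an unadjusted p under 0.05 in limma. The F-test count of 7 became 4 with the erythroid covariate. The causes were not tested. The shares of all tested genes called under each alternative are not given, so these counts and those that follow are not a result about the 10 genes. Leaving out 1 sample at a time gave 5 to 7 genes between T-DCs and N-mDCs, 4 to 5 between T-DCs and T-mDCs, 0 to 4 between T-mDCs and N-mDCs (0 without N-mDC sample 3 or T-mDC sample 2 or 3, 1 without N-mDC sample 2 or T-mDC sample 1) and 5 to 7 in the F-test.

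The replicate numbers were also fitted as a block. Samples of the same number deviated from their group means together in 2 of 9 pairs at a correlation over 0.1 (range -0.475 to 0.269), so the data do not show that the numbers pair the samples. With the replicate block 5, 4 and 1 genes were called in the 3 comparisons and 6 in the F-test. TPM scaling moved the median of all genes from 0.07 to -0.23 between T-DCs and T-mDCs and from 0.03 to 0.24 between T-mDCs and N-mDCs. The share of calls that were lower went from 61.8% to 78.1% and from 68.8% to 50.5%, and was 75.2% between T-DCs and T-mDCs on recovered reads. With 15360815 to 18440913 reads a library, Mgl2 in T-DCs rested on 10 to 28 reads, the fewest of the 10 genes.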
